A study of Homo sapiens with 3 samples.

Results

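The genes described here are the mitochondrial carrier genes of the SLC25 family, taken as every autosomal protein-coding gene of the RefSeq table (GRCh38.p14) whose symbol is SLC25A followed by digits. The rule gave 43 genes on 18 chromosomes, out of 19122 autosomal protein-coding genes. Another 5 genes with such symbols lie on chromosome X and are outside the rule. H1299, a long-established human lung cancer line that the labels call adenocarcinoma cells, was profiled by CUT&RUN, in which an antibody-guided nuclease cuts out the DNA around a chromatin protein. There were 3 libraries of these cells, for which the labels name no treatment, genotype change or time. SP1, a transcription factor, was the target in 1 library, histone H3 acetylated at lysine 27 (H3K27ac) in 1, and control IgG was used in the other, not analysed here. With 1 library per antibody, no value has a replicate and no test across samples was possible.

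SLC25 proteins sit mainly in the inner mitochondrial membrane, where each moves particular metabolites, nucleotides or cofactors between cytosol and matrix, most of them by exchange. They connect the citric acid cycle, respiration and amino acid metabolism to the rest of the cell. SP1 binds GC boxes in the promoters of many widely expressed genes, and H3K27ac marks active promoters and enhancers.

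The measurements are peak summits, single bases called by the authors from each library, each with a score, −log10 of p or q (the files do not say which), so a higher score is a stronger call. The lists held 5570 SP1 summits (median score 6.17) and 3201 H3K27ac summits (median score 5.01). The read depth behind them is unknown, so the lists were not set against each other as amounts of binding. A gene was counted when a summit lay within 1000 bases of either end of its span. Of 8 lung epithelial and adenocarcinoma markers, 1 (12.5%) had an SP1 summit there, NAPSA with a score of 6.69, and of 5 blood cell markers none had. Over all autosomal protein-coding genes the share was 14.1%, so counts this small say nothing about the type of cell. NKX2-1, SFTPB, SFTPC, KRT7, KRT8, KRT18 and EPCAM had no summit of either library at an end. H3K27ac was called at so few genes that its absence there says little.

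SP1 was called at the ends of 12 of the 43 carrier genes, or 27.9% (95% Wilson interval 16.7 to 42.7). Over all autosomal protein-coding genes the share was 14.1% (13.6 to 14.6). The 12 were the carboxylate carriers SLC25A1, SLC25A10 and SLC25A11, with SLC25A35 grouped beside them, the ATP-Mg/phosphate carriers SLC25A23, SLC25A25 and SLC25A41, the cofactor and nucleotide carriers SLC25A16, SLC25A36 and SLC25A42, the glutamate carrier SLC25A22 and the glutathione carrier SLC25A39. H3K27ac was called at the ends of 1 carrier gene, SLC25A46, or 2.33% (0.412 to 12.1), against 0.868% of all genes. No carrier gene had both, and 30 had neither. Both libraries were found at 34 genes in all, or 0.178%. Intervals cover counting error only and treat genes as independent, although neighbouring genes can share a summit.

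**Figure D1:**
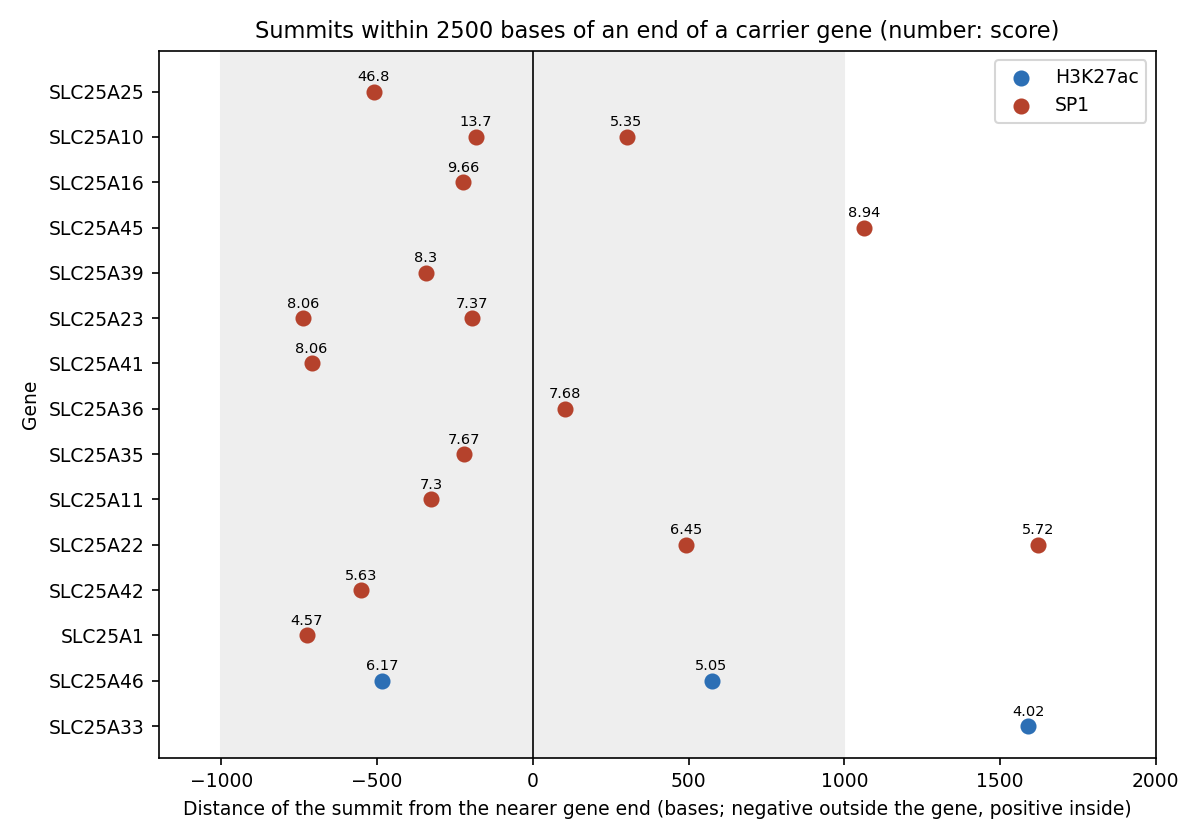
Position of each summit within 2500 bases of an end of a carrier gene, in bases from the nearer end (negative outside the gene, positive inside), with the score printed above each point and the 1000-base window shaded. SP1 summits (red) lie mostly outside the gene, SLC25A25 has the highest score (46.8), and SLC25A45 falls just outside the window at 1064 bases.

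The promoters below show how different the bases before the start can be among carrier genes. Each run is the 250 bases before the RefSeq start site (GRCh38.p14), 5′ to 3′ on the gene's strand, with GC boxes (GGGCGG or its reverse complement CCGCCC, overlapping matches included) in capitals. SLC25A23 (chr19:6459793-6460042, minus strand) holds an SP1 summit within the run. SLC25A25 (chr9:128067982-128068231, plus strand) and SLC25A1 (chr22:19178737-19178986, minus strand) have the highest and the lowest score among the 12 genes, by the best summit at a gene end, with summits further out. SLC25A39 (chr17:44324824-44325073, minus strand) is shown for its 5 GC boxes and SLC25A42 (chr19:19063744-19063993, plus strand) for having none. Their summits also lay outside the runs, 344 and 552 bases before the start. SLC25A3 (chr12:98593436-98593685, plus strand) and SLC25A4 (chr4:185143016-185143265, plus strand) have no SP1 summit nearby.
SLC25A23: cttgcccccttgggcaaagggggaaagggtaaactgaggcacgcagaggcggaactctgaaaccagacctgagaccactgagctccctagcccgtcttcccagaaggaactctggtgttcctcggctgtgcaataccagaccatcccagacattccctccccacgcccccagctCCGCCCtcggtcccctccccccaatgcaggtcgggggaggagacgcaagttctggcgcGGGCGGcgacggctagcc
SLC25A25: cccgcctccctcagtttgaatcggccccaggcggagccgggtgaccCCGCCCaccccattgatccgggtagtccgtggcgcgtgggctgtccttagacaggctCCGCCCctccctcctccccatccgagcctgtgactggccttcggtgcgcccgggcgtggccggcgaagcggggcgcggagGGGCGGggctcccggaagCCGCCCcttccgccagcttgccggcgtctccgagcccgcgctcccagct
SLC25A1: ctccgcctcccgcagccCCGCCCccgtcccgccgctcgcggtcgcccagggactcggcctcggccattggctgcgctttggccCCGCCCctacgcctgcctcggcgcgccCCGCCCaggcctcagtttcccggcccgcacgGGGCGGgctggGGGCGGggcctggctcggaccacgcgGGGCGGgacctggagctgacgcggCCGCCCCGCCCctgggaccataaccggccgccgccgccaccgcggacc
SLC25A39: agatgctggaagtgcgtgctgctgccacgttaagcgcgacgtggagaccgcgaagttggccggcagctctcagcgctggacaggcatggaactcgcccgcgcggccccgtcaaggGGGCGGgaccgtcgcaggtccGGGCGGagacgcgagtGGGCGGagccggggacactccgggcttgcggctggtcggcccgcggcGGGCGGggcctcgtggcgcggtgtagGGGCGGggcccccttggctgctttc
SLC25A42: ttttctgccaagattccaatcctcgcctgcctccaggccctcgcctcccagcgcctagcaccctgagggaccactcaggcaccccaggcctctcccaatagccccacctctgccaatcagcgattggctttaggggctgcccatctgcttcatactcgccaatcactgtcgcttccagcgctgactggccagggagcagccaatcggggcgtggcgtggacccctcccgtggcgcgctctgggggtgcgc
SLC25A3: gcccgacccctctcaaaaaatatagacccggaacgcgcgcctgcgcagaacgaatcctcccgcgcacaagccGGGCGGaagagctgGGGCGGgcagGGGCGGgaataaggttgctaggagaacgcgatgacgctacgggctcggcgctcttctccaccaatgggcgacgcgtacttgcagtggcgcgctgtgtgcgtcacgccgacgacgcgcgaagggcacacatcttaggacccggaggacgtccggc
SLC25A4: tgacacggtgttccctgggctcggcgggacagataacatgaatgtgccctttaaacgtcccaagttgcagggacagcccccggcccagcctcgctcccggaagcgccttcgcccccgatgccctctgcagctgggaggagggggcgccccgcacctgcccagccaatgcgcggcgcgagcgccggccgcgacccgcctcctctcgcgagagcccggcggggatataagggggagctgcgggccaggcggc

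The genes grouped as carriers of di- and tricarboxylates and keto acids had SP1 at 4 of 6, or 66.7% (30.0 to 90.3), against 14.1% of all genes. The grouping is by background knowledge, and the count includes the less well characterised SLC25A35. SLC25A10, the dicarboxylate carrier that exchanges malate or succinate for phosphate, had SP1 summits on both sides of its start on chromosome 17. The stronger, at 81712102, lay 182 bases before the start with a score of 13.7, within the best 10.4% of the SP1 list. The weaker, at 81712585, lay 301 bases inside the gene with a score of 5.35. No other gene end was within 1000 bases of either.

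SLC25A11, which exchanges 2-oxoglutarate for malate in the malate-aspartate shuttle, had a summit of 7.30 on chromosome 17 at 4940372, 326 bases before its start. SLC25A35, a less well characterised relative, had 7.67 at 8295622 on the same chromosome, 222 bases outside its high-coordinate end. At SLC25A1, the citrate carrier that feeds fatty acid synthesis, the summit on chromosome 22 at 19179461 scored 4.57, the lowest among the highest scores at the ends of the 12 genes, 725 bases before the start. Over all genes with an SP1 summit at an end, the quartiles of the highest score were 6.21 and 12.6, so SLC25A10 lay above the upper one, SLC25A1 below the lower one and the others between them. The oxodicarboxylate carrier gene SLC25A21, which at 495 kb is the longest of the family, had no summit at an end but 2 weak SP1 summits inside, with scores of 3.95 and 3.82, at 4401 and 4711 bases from its ends. SLC25A34 had none within 94.3 kb.

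Among the 6 genes of ADP/ATP and ATP-Mg/phosphate transport, the 3 with SP1 (an interval of 18.8 to 81.2%, against 14.1% of all genes) were all ATP-Mg/phosphate carriers, which adjust the adenine nucleotide content of the matrix. SLC25A25, a calcium-regulated member, had the highest score of the family by far. Its summit on chromosome 9 at 128067721 scored 46.8, rank 24 of the 5570 SP1 summits, 511 bases before the start. SLC25A23, another calcium-regulated member, had 2 summits before its start on chromosome 19, at 6459986 (194 bases, 7.37) and 6460529 (737 bases, 8.06). The former lay 120 bases from the centre of the nearest GC box in the sequence printed. Another at 6455394, inside the gene, scored 4.39.

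SLC25A41, whose span overlaps that of SLC25A23, had a summit of 8.06 at 6425327, 710 bases outside its low-coordinate end, at the far side from the summits of SLC25A23. The fourth ATP-Mg/phosphate carrier gene, SLC25A24, had its nearest SP1 summit at 400 kb. The ADP/ATP exchanger genes SLC25A4, the form of heart and muscle, and SLC25A31, the form of the germ line, had theirs at 276 kb and 513 kb. The phosphate carrier gene SLC25A3, which supplies phosphate for ATP synthesis, had its nearest at 38.6 kb. For ATP and phosphate carriers the nearest SP1 summit was thus either within 1000 bases or at least 38.6 kb away.

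Of 10 genes for carriers of cofactors, nucleotides and related compounds, 3 had SP1, or 30.0% (10.8 to 60.3), against 14.1% of all genes. SLC25A16, linked to coenzyme A transport, had 9.66 on chromosome 10 at 68527747, 224 bases outside its high-coordinate end, and a second summit inside the gene at 68503669 with 5.31. SLC25A36, a pyrimidine nucleotide carrier, had 7.68 on chromosome 3 at 140941939, 103 bases into the gene, the closest to an end of any in the family. At SLC25A42, a coenzyme A carrier, the summit on chromosome 19 at 19063442 scored 5.63, 552 bases before the start. Others of this group were SLC25A17 of the peroxisome, SLC25A26 for S-adenosylmethionine, SLC25A32 for folate, SLC25A33 for pyrimidine nucleotides and the NAD carriers SLC25A51 and SLC25A52. Their nearest SP1 summits lay from 49.9 kb (SLC25A51) to 442 kb (SLC25A26) away.

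Amino acid carriers had SP1 at 1 of 9 genes, or 11.1% (1.99 to 43.5), near the 14.1% of all genes. SLC25A22, which carries glutamate into mitochondria, had 6.45 on chromosome 11 at 797788, 493 bases inside its high-coordinate end and 210 bases downstream of a listed start. A further summit at 796660 scored 5.72, 422 bases upstream of another listed start. None was called at the ends of the aspartate-glutamate carrier genes SLC25A12 and SLC25A13, the ornithine and basic amino acid carrier genes SLC25A15, SLC25A2 and SLC25A29, the glycine carrier gene SLC25A38, the branched-chain amino acid carrier gene SLC25A44 or the glutamate carrier gene SLC25A18. The shares of the role groups rest on 10 genes or fewer and their intervals overlap.

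Of the glutathione carrier genes, SLC25A39 had SP1 and SLC25A40 did not. At SLC25A39 the summit on chromosome 17 at 44325167 scored 8.30, 344 bases before the start, while the nearest to SLC25A40 was 344 kb away. No SP1 summit lay at an end of the carnitine-acylcarnitine carrier gene SLC25A20, the mitochondrial iron importer genes SLC25A28 and SLC25A37, the uncoupling protein relatives SLC25A27 and SLC25A30, or SLC25A45, SLC25A47 and SLC25A48, whose roles are less settled.

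The summits closest to the limit were, on the inside, those of SLC25A23 at 737 bases, SLC25A1 at 725 bases and SLC25A41 at 710 bases. On the outside they were those of SLC25A45 at 1064 bases, SLC25A22 at 1621 bases and SLC25A23 at 4398 bases. The gap matters for SLC25A45, since its summit at 65382637 on chromosome 11, with a score of 8.94, was 9 bases downstream of a RefSeq start listed inside the span. It also lies inside the span of FRMD8. Likewise the SLC25A28 summit at 99621192 on chromosome 10, with 6.08, was 10.7 kb from a span end but 753 bases before its listed start. The summit is also within 1000 bases of an end of the non-coding gene SLC25A28-DT. With any listed start counted, a rule chosen after the data were seen, SP1 was at 11 of 35 carrier genes with a listed start (31.4%), against 15.3% of all genes.

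Where the strand was listed, each SP1 summit at a carrier gene end was at the 5′ end. Of 35 carrier genes with a strand, 9 (25.7%) had a summit within 1000 bases of the 5′ end of the span, against 14.1% of all genes with a strand, and none had one at the 3′ end, against 1.06%. Of the 14 summits at carrier gene ends, 11 were outside the span. The 14 lay from 103 to 737 bases from the end, with a median of 335 bases. The median over all genes was 282 bases. Within 1000 bases of listed starts there were also 14 summits, but not the same set. It includes those of SLC25A28 and SLC25A45 and leaves out genes with no listed start. Of these, 10 were upstream, and over all genes 60.8% of 2581 pairs of a summit and a gene. SLC25A2, SLC25A16, SLC25A30, SLC25A32, SLC25A35, SLC25A37 and SLC25A41 were among the genes with no listed start or strand.

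Scores at the carriers were moderate. Taking the highest score per gene, the 12 carrier genes ran from 4.57 (SLC25A1) to 46.8 (SLC25A25), with a median of 7.87. The median over the 2689 genes with an SP1 summit at an end was 8.56. Only SLC25A25 and SLC25A10 exceeded a score of 10, or 16.7% of the 12 genes, against 38.2% of all genes with a summit. SLC25A16 was the only other carrier gene above the median of all genes. With summits limited to scores above 9.04, the upper quartile of the SP1 list, only these 3 of the 43 carrier genes kept SP1, against 6.39% of all genes.

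**Figure D2:**
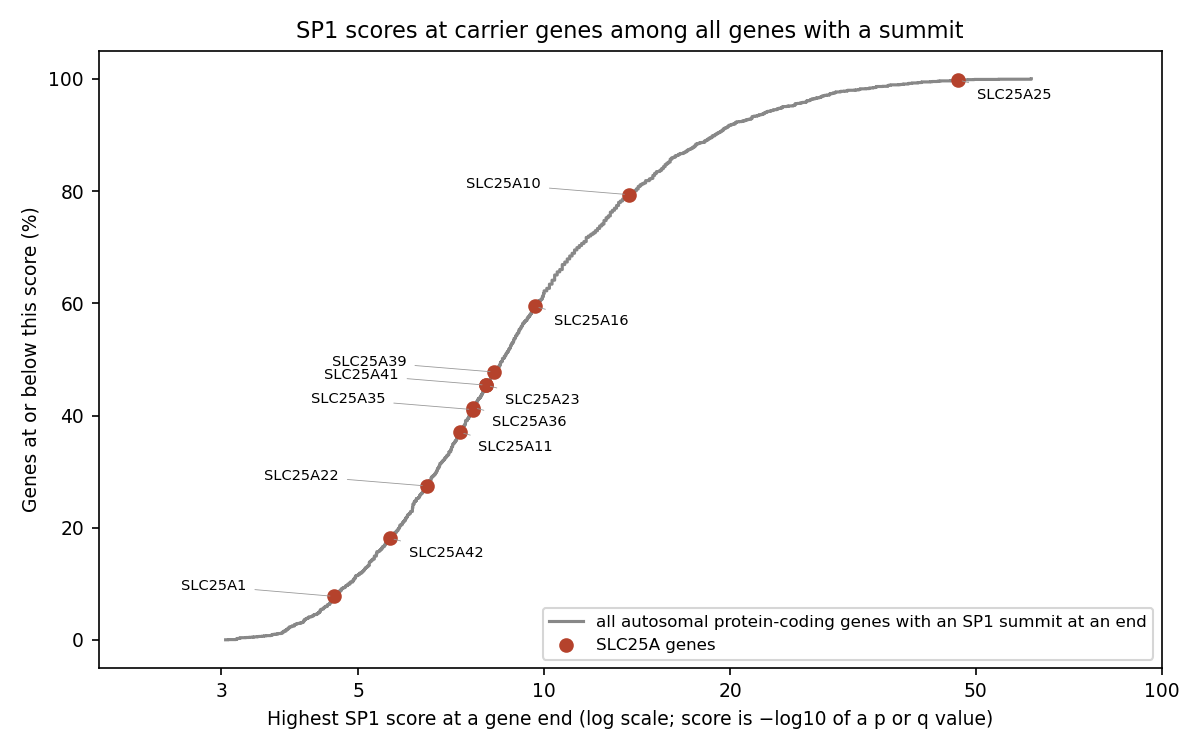
Cumulative share of the 2689 autosomal protein-coding genes with an SP1 summit at an end (grey line) against their highest score there on a log scale, with the 12 carrier genes as red points. The carriers cluster between scores of 5.63 and 9.66, with SLC25A1 below (4.57) and SLC25A10 (13.7) and SLC25A25 (46.8) above.

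Of the 12 carrier genes with SP1, 7 lay on chromosomes 17 and 19, a split chosen after the data were seen. SP1 was at all 3 carrier genes of chromosome 19 (SLC25A23, SLC25A41 and SLC25A42) and at 4 of 5 on chromosome 17 (SLC25A10, SLC25A11, SLC25A35 and SLC25A39). Over all genes of these chromosomes the shares were 30.2% and 18.5%. On the remaining chromosomes SP1 was at 5 of 35 carrier genes, SLC25A1, SLC25A16, SLC25A22, SLC25A25 and SLC25A36. This is 14.3% (6.26 to 29.4), against 12.3% of all genes there. Without the 8 genes on chromosomes 17 and 19, the share of the family was thus close to that of other genes, while SP1 was at 87.5% of those 8 (52.9 to 97.8), against 654 of the 2620 genes on both chromosomes.

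Carrier genes with SP1 had shorter spans than the others. Their median span was 9.48 kb and the longest, SLC25A16, 49.5 kb, against a median of 27.5 kb for the other 31. Over all genes the medians with and without SP1 were 23.2 kb and 24.9 kb. Whether gene length or chromosome had a part in the SP1 count was not tested.

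**Figure D3:**
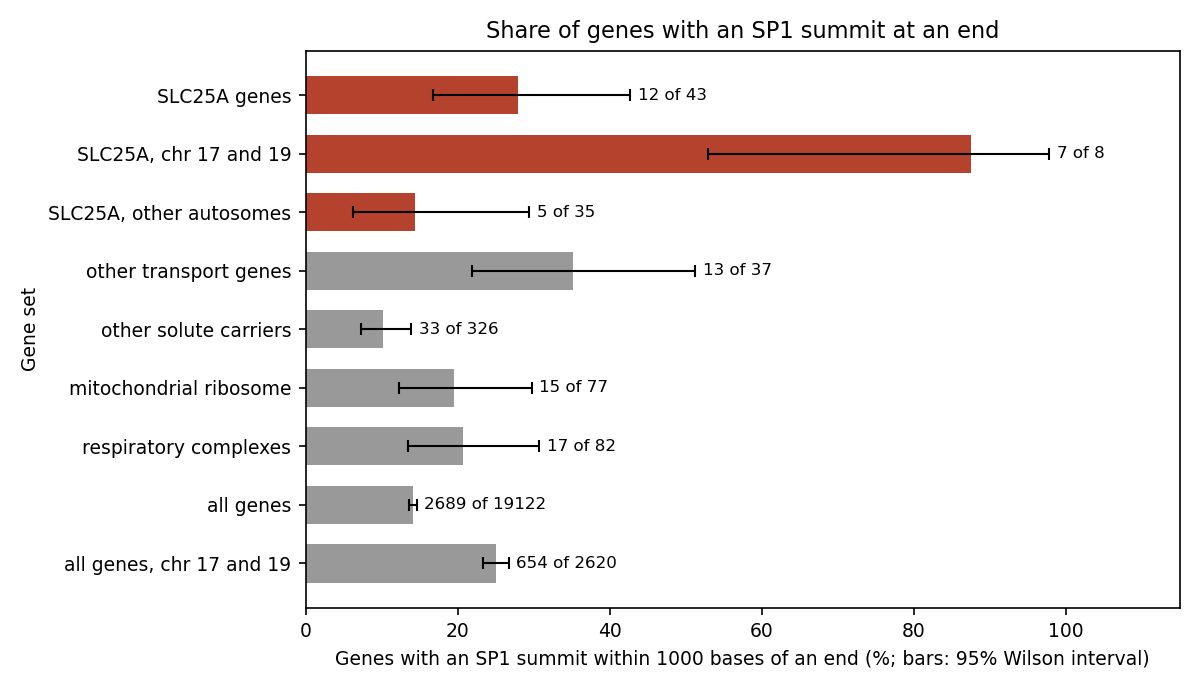
Share of genes with an SP1 summit within 1000 bases of an end, with 95% Wilson intervals as bars and the counts beside them; carrier genes are red and other gene sets grey. The 8 carrier genes of chromosomes 17 and 19 stand at 87.5%, the 35 on other autosomes at 14.3% and all genes at 14.1%. This split by chromosome was chosen after the data were seen, which the intervals do not allow for.

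Many of these summits cannot be given to the carrier gene alone. A protein-coding neighbour had an end within 1000 bases of the same SP1 summit at 5 of the 12 genes (41.7%), against 39.6% of all genes with a summit, and all 5 summits were nearer to an end of the neighbour. SLC25A25 and NAIF1 run in opposite directions from starts 912 bases apart, and the summit was 511 bases from the former and 401 from the latter. SLC25A11 and RNF167, a ubiquitin ligase gene, diverge from ends 46 bases apart, and the summit lay inside RNF167, 104 bases from its listed start. SLC25A22 overlaps PANO1 on the other strand, whose start was 162 bases from the summit.

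SLC25A41 shared its summit with KHSRP, a gene of an RNA-binding splicing regulator, whose start was 516 bases away. The fifth case was different, since the summit of SLC25A1 was 12 bases from the 3′ end of CLTCL1, a clathrin heavy chain gene, and 112258 bases from its listed start. Non-coding RNA genes shared the summits of SLC25A39 (LOC124904009) and SLC25A42 (LOC124904655). This left SLC25A10, SLC25A16, SLC25A23, SLC25A35 and SLC25A36 with summits near no other gene end. With genes of every kind counted, 58.3% of the 12 shared a summit, against 56.5% of all genes with one.

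H3K27ac at carrier genes was found mostly inside them. SLC25A46, an outer membrane protein that takes part in mitochondrial fission and lipid transfer, had a summit at each end on chromosome 5. The one at 110738719 scored 5.05, 574 bases into the span and 288 bases before the listed start, and it lay inside TMEM232, which overlaps SLC25A46 on the other strand, 235 bases from an end of that gene. The one at 110765640 scored 6.17, 483 bases past the 3′ end. Each count for SLC25A46 is thus 1 carrier gene, beside a share over all genes of 0.649% at the 5′ end, 0.258% at the 3′ end and 0.768% at any listed start. Of all genes with H3K27ac at an end, 24.7% shared a summit with a protein-coding neighbour and 39.8% with a gene of any kind. The nearest SP1 summit was 69.7 kb from an end of SLC25A46. The H3K27ac summits next beyond the limit were those of SLC25A33 at 1590 bases (4.02), SLC25A51 at 5941 bases (4.84) and SLC25A20 at 7963 bases (4.63).

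Summits of H3K27ac lay inside 5 carrier genes (11.6%), SLC25A12, SLC25A33, SLC25A46, SLC25A48 and SLC25A51, against 5.90% of all genes. SP1 summits lay inside 9 (20.9%), against 13.0%. They were SLC25A10, SLC25A12, SLC25A16, SLC25A21, SLC25A22, SLC25A23, SLC25A28, SLC25A36 and SLC25A45. The summits inside SLC25A10 and SLC25A36 and 1 inside SLC25A22 were also counted at ends, as was the H3K27ac summit inside SLC25A46. Those inside SLC25A28 and SLC25A45 and the other of SLC25A22 lay within 1000 bases of a listed start. The counts inside thus overlap those at ends. Longer genes have more room for a summit, and median spans were 26.6 kb for carrier genes and 24.5 kb for all genes. SLC25A12, the aspartate-glutamate carrier of brain and muscle, was the one carrier gene with summits of both libraries inside its span, SP1 at 171815182 on chromosome 2 (3.90) and H3K27ac at 171807816 (5.06) and 171827735 (6.29). SP1 and H3K27ac were 7366 bases apart at the closest in this span of 111 kb. The share of all genes with both inside was not counted, so no weight can be put on this case. Whether the summits inside carrier genes are intronic or exonic cannot be read from gene spans.

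The authors' ranked regions overlapped few carrier genes. Each carries a rank, and most hold 1 peak only (2275 of 2356 for SP1 and 2612 of 2710 for H3K27ac). An SP1 region overlapped the span, extended by 1000 bases, of 4 (SLC25A12, SLC25A16, SLC25A21 and SLC25A23; 9.30%, against 4.80% of all genes), and an H3K27ac region that of 5 (the genes with an H3K27ac summit inside; 11.6%, against 5.06%). None of the 14 SP1 summits at carrier gene ends lay in an SP1 region. Nor did those of SLC25A45, SLC25A22 and SLC25A28 at 9, 422 and 753 bases from a listed start. The SP1 summits deeper inside SLC25A12, SLC25A16, SLC25A21 and SLC25A23 did. The matching share for gene ends in general was not counted, so this absence cannot be read as a trait of the carriers. Whether the regions leave out places close to starts was not tested. The best-ranked regions at carrier genes were the SP1 region inside SLC25A23, rank 693 of 2356, and the H3K27ac region of SLC25A12 around its summit at 171827735, rank 732 of 2710. Every other region at a carrier gene had a worse rank in its list.

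For genes without a summit at an end, distances to the nearest one were long. For SP1 the nearest after SLC25A45 and SLC25A21 were those of SLC25A28 (10.7 kb), SLC25A48 (11.3 kb), SLC25A12 (28.4 kb) and SLC25A3 (38.6 kb). The farthest were those of SLC25A38 (950 kb), SLC25A18 (582 kb), SLC25A31 (513 kb) and SLC25A26 (442 kb). The median was 69.7 kb over the 43 carrier genes and 83.3 kb over all genes. An SP1 summit was over 100 kb away for 17 carrier genes (39.5%), against 46.6% of all genes.

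For H3K27ac the median was 301 kb, against 300 kb for all genes. After the genes already named, the nearest were those of SLC25A12 (24.4 kb), SLC25A45 (36.0 kb) and SLC25A3 (39.6 kb), and the farthest those of SLC25A22 (4886 kb), SLC25A24 (2863 kb), SLC25A26 (2707 kb) and SLC25A52 (2594 kb). From the 14 SP1 summits at carrier gene ends, the nearest H3K27ac summit was 65.5 kb (SLC25A41) to 4887 kb (SLC25A22) away. No H3K27ac summit was thus called within 65.5 kb of SP1 at a carrier gene end. The files hold no signal below the calling threshold, so a weaker mark there cannot be seen. The matching distances for SP1 summits at the ends of all genes were not counted. This separation therefore cannot be read as a trait of the carriers.

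**Figure D4:**
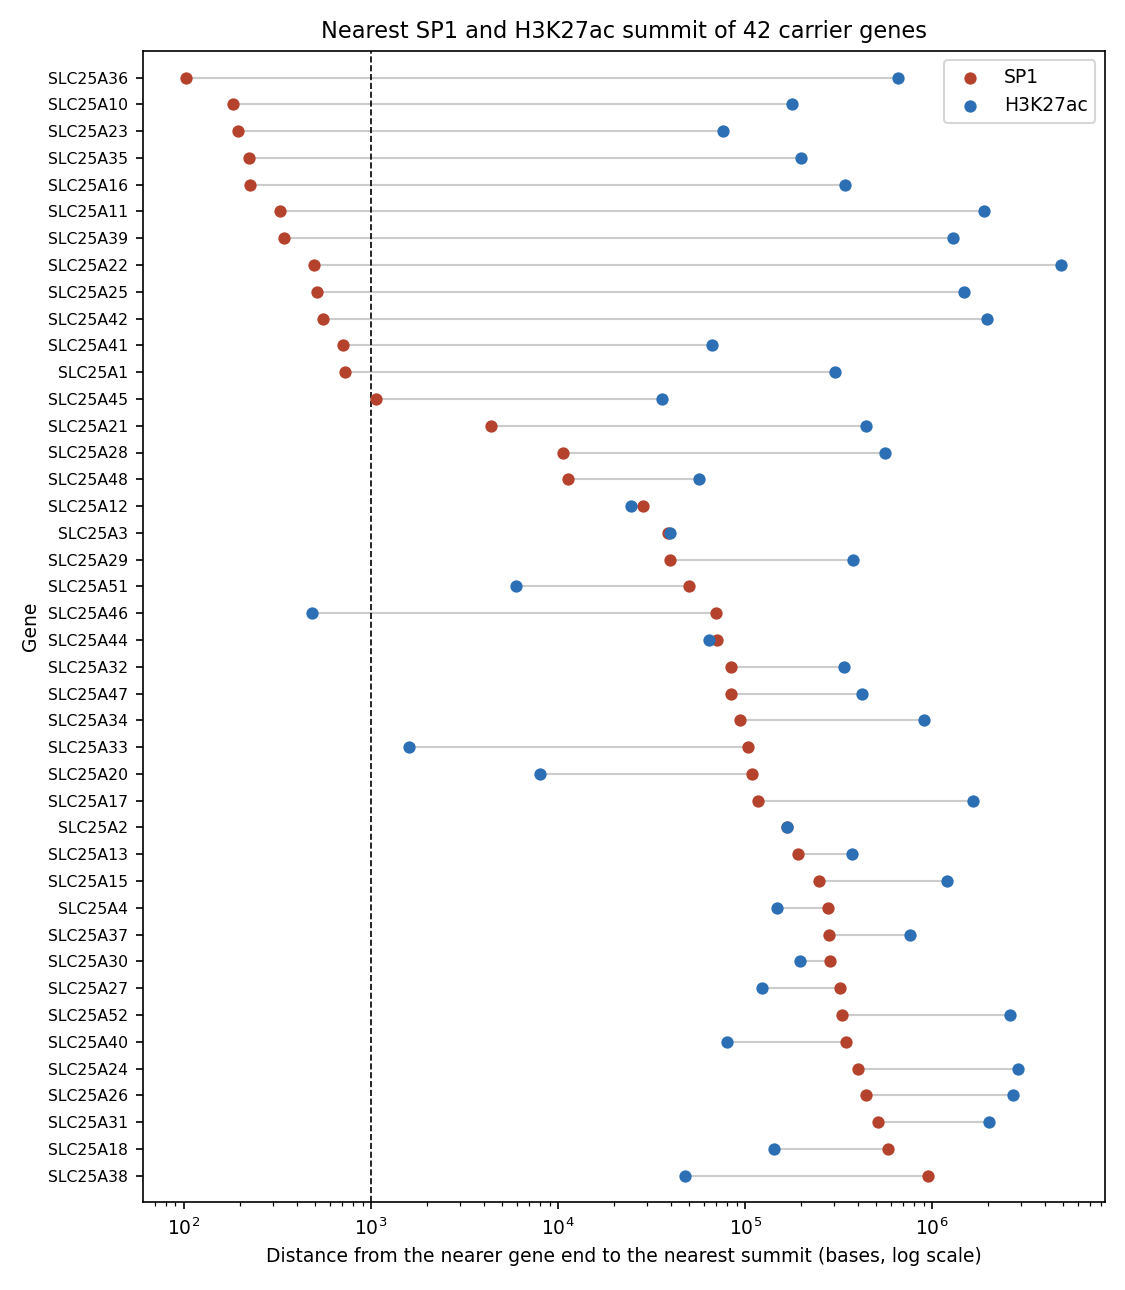
Distance in bases (log scale) from the nearer end of each of 42 carrier genes to the nearest SP1 summit (red) and H3K27ac summit (blue), sorted by SP1, with the 1000-base limit dashed. SP1 is within the limit at 12 genes and H3K27ac at SLC25A46 alone, and no gene is within the limit of both.

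GC boxes were common in carrier promoters with and without SP1. In the window from 250 bases before to 50 after the start, GGGCGG was present on either strand in 24 of 35 carrier promoters (68.6%), against 58.7% of 15100 promoters of autosomal protein-coding genes. It was in 9 of the 11 with an SP1 summit at a start (81.8%, against 77.9% of all such genes) and in 15 of the 24 without (62.5%, against 55.1%). The promoter of SLC25A1 held 8, the most of the 35, and its summit scored lowest among the best summits at the ends of the 12 genes. Some summits inside other carrier genes scored lower still. SLC25A25 (4 of them in the bases printed) and SLC25A39 held 5 each, as did SLC25A15 and SLC25A17, which had no SP1 summit within 249 kb and 118 kb.

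The SLC25A11 and SLC25A42 windows held none, though both had a summit at 326 and 552 bases, outside the window. SLC25A42 held 6 matches to the CCAAT box (ATTGG, either strand), the most of the 35. That motif was in 16 carrier promoters (45.7%), against 36.0% of all, and the ETS motif CCGGAAG in 8 (22.9%), against 14.3%. The palindromic motif of nuclear respiratory factor NRF1, searched without mismatches, was in none of the 35 and in 1.78% of all promoters. Bases G and C made up a median of 66.7% of carrier promoters and 62.7% of all.

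Over all genes, the share with SP1 at a start rose with the number of GC boxes, from 8.39% with none to 18.1% with 1, 20.9% with 2 and 23.4% with 3 or more. Among carrier genes the counts in these classes were 2 of 11, 1 of 4, 3 of 8 and 5 of 12. These matches describe the letters in the window and do not show a bound site.

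**Figure D5:**
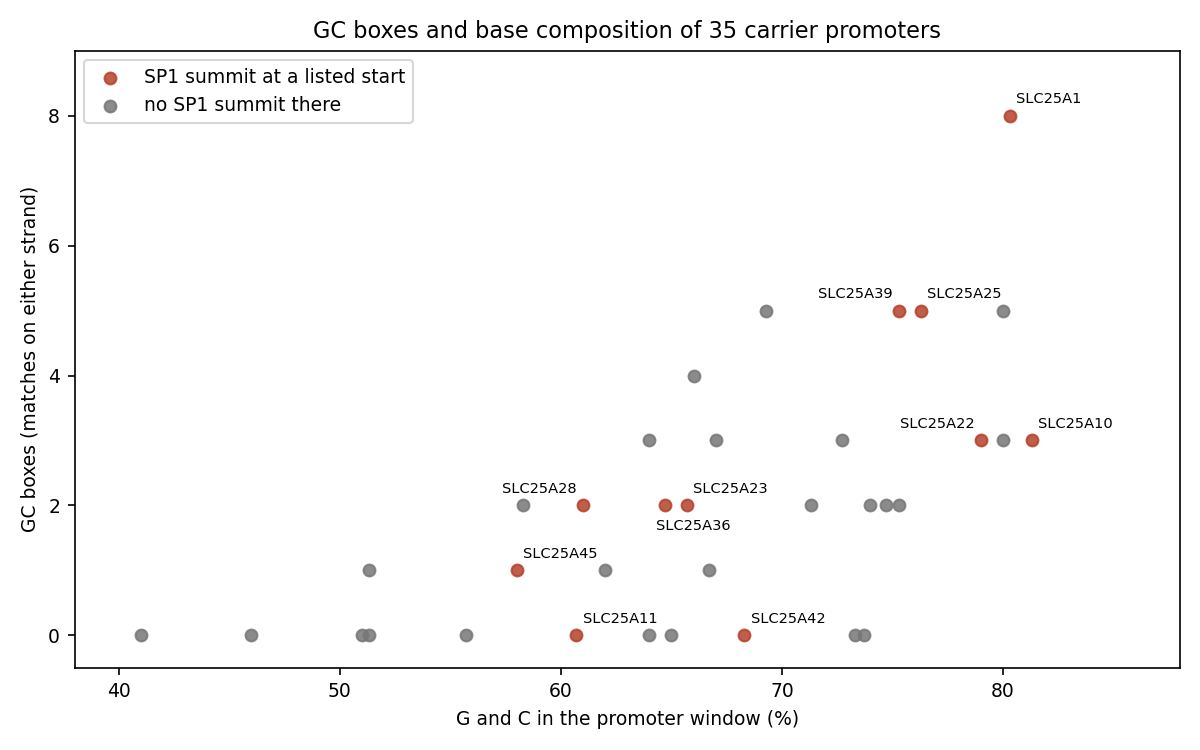
Number of GC boxes against the percentage of G and C in the 300-base promoter window of the 35 carrier genes with a listed start; red points have an SP1 summit within 1000 bases of a listed start or of the 5′ end of the span. Red and grey points overlap over most of the range, with SLC25A1 highest at 8 GC boxes.

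Other genes of mitochondrial transport also carried SP1. Across 4 lists with 37 autosomal genes, SP1 lay at the ends of 13, or 35.1% (21.8 to 51.2), against 14.1% of all genes. Their median score was 8.99, against 8.56 over all genes with a summit. The lists were chosen with earlier results of these data known, so their share is a description only. The counts of the single lists below rest on 14 genes or fewer, and each stands beside the same 14.1% of all genes. Of the carriers under other symbols, UCP2, an uncoupling protein homologue, had 15.5 and the outer membrane protein gene MTCH1 had 8.99, while UCP1, UCP3 and MTCH2 had none. Among other inner membrane transporters, 5 of 14 had SP1, led by MPC2 of the pyruvate carrier with 21.7 and the ABC transporter gene ABCB8 with 13.1. The sideroflexin gene SFXN2 had 9.66 and 5.92, with ARL3 and WBP1L as protein-coding neighbours at its summits. The sodium-calcium exchanger gene SLC8B1 had 6.78.

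In the machinery that imports carrier proteins 5 of 14 had SP1. TOMM40, the pore of the outer membrane, had 29.6 and the receptor gene TOMM70 had 14.2. TOMM6 had 8.92, the chaperone gene TIMM13 8.67 and TIMM22, the carrier translocase, 8.06. The summits of TOMM70, TOMM6 and TIMM13 were shared with the protein-coding neighbours LNP1, PRICKLE4 and LMNB2, in this order. TIMM9, a chaperone gene, had the one H3K27ac summit of these lists, with 4.72, shared with KIAA0586. That is 2.70% of the listed genes (0.479 to 13.8), against 0.868% of all genes. VDAC2 was the 1 of 4 outer membrane channel genes with SP1, at 6.29.

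Beside other families, whose choice came after the carrier values were seen, the carriers had SP1 at 27.9%, the respiratory complexes at 20.7% (17 of 82; 13.4 to 30.7), mitochondrial ribosomal proteins at 19.5% (15 of 77; 12.2 to 29.7) and solute carriers of other SLC families, SLC8B1 included, at 10.1% (33 of 326; 7.30 to 13.9). The interval of the carriers overlapped those of both mitochondrial sets and not that of the other solute carriers. For the 35 carrier genes outside chromosomes 17 and 19 it was 6.26 to 29.4 (14.3%), which overlapped that of the other solute carriers too. The other families were not split by chromosome. These intervals leave out that neighbouring genes share summits, and no test of the differences was made.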

How the data were processed

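H1299 cells were profiled by CUT&RUN with 1 library per antibody. For SP1 and H3K27ac the authors deposited scored summits and ranked regions. Each deposited summit score is read as −log10 of p or q (which is not stated), and none is below 3. In the deposited region files the score is a rank, with 1 as the best. Per the submitters' processing notes, the build is hg38, with cutadapt 2.5 and deepTools 3.4.1 named in no stated role. The aligner, peak caller, its control and the depth: not given in the sources used here.

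Gene spans came from RefSeq (GRCh38.p14). Strand, starts and sequences came from its promoter table, which held 35 of the 43 genes. Python 3.11.15 with pandas 2.3.3 and scipy 1.17.1 assigned each summit to every gene with an end within 1000 bases, and gave 95% Wilson intervals. Region overlap needed 1 base. On simulated data all 200 planted genes were recovered among 19122. Their summits were planted within the same 1000 bases, so this checks the code and not the real calls. Genes named are all with a summit at an end, those nearest to and farthest from the window, neighbours, and listed transport genes. Other distances and promoters are examples chosen after their values were seen. Some items are counted but not reported here by name or sequence. Members and lists were chosen with earlier results of these data known. Alternatives covered distance, score, end, neighbour, overlap, rank and motif.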

Additional observations from a re-analysis of the deposited data

How the results depend on the processing

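No paired analysis was possible because each target had a single library. Of 36 alternative values, 24 stayed within 1.5 times the value reported and 12 moved further. With summits limited to scores above the upper quartile, SP1 was at the ends of 3 of 43 carrier genes and of 6 of 37 other transport genes. All genes fell to 6.39% there, so the carriers' count was then near that background. In that setting 1 of the 3 carrier genes with a summit shared it with a neighbour, against 45.6% of all genes with a summit. Within 500 bases, 2 of the 8 carrier genes with a summit shared it, against 31.5% of all genes with one. Within 2500 bases, H3K27ac was at 2 of 43 carrier genes, against 1.53% of all genes. The transport genes with H3K27ac numbered 0 within 500 bases, above the median score and above the upper quartile. The shares of all genes were 0.418%, 0.413% and 0.235%, too low for these zeros to be a result about the transport genes. The better-ranked 50% of regions overlapped 1 of 43 carrier genes for SP1 and 1 of 43 for H3K27ac, against 2.44% and 2.49% of all genes. GGGGCGGGG was in 8 carrier promoters (22.9%, against 22.4% of all promoters). Outside chromosomes 17 and 19, SP1 was at 5 of 35 carrier genes, against 12.3% of all genes there. That setting and those that use any listed start were chosen after seeing the data. Narrower windows, fewer summits, regions or genes and a longer motif lower counts by construction. Of the 43 carrier genes, SP1 was at 8 within 500 bases, against 11.7% of all genes. It was at 13 of 43 within 2500 bases (16.2% of all genes) and at 10 of 43 with summits above the median score (10.6% of all genes). What read depth limits could not be assessed, since the files give no depth.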
